A study of Mus musculus with 12 samples.

Results

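The Nrf2 target and sensor genes were followed in calf muscle (gastrocnemius) of 12 mice that had gone through a heat test. The genes were Hmox1, Nqo1, Gclm, Gclc, Srxn1, Txnrd1, Sqstm1, Gsr, Nfe2l2 and Keap1, chosen by name, with every probe that carries their symbol in the platform annotation. A probe was tested where its detection p-value, the chance of so bright a signal among negative control beads, was under 0.05 on 6 or more of the 12 arrays. The annotation names 17 probes for 9 of the 10 genes, of which 13 probes of 8 genes were tested, out of 15570 tested probes and 9034 tested genes in all. No probe was named for Gsr, the glutathione reductase, and it was not analysed here. All mice were male C57BL/6J, 10 to 12 weeks old and 22 to 26 g in weight, and all carried an implanted temperature transponder. The chamber was set to 39.5 °C for up to 3 h and the muscle was collected under anesthesia the following day. The 6 TOL mice, labelled heat tolerant, and the 6 INT mice, labelled heat intolerant, were classed by their core temperature in the test, and mice of intermediate response were not on these arrays. No mouse kept out of the heat was on the arrays, so levels before heat were not analysed here.

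Nrf2, the protein of Nfe2l2, is a transcription factor that is made and destroyed continuously. Keap1 is its sensor: it holds Nrf2 for the Cul3 and Rbx1 ubiquitin ligase until oxidants or electrophiles modify the cysteines of Keap1, after which Nrf2 accumulates, pairs with a small Maf protein and binds antioxidant response elements in front of genes for glutathione synthesis, thioredoxin and quinone reduction and heme breakdown. Because this control acts on protein stability, the mRNA of Nfe2l2 and Keap1 need not follow the activity of the pathway, which is usually read from its target genes. In skeletal muscle the pathway is known for its response to exercise and to oxidative stress.

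The core of the antioxidant response element was looked for in RefSeq promoter windows of 300 bases (build GRCm38.p6, 250 bases before to 50 after each transcription start), as the letters TGACNNNGC on either strand. Of the 10 genes, 7 had at least 1 window, and windows of 4 genes held the letters. The matches are shown because Nrf2 binds such elements, and binding at these sites was not tested here. The core is in capitals with 10 bases on each side, read along the strand of the gene.
Gclm, chr3:122245413-122245441, plus strand: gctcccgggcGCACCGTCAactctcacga
Srxn1, chr2:152105542-152105570, plus strand: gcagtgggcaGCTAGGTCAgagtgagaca
Txnrd1, chr10:82859104-82859132, plus strand: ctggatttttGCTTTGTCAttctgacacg
Nfe2l2, chr2:75704885-75704913, minus strand: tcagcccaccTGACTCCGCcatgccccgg
The core began 134 bases before the start of Gclm, 92 bases before 1 of the 3 starts of Txnrd1 and 240 bases before the start of Nfe2l2, and 28 bases after the start of Srxn1. In Gclm, Srxn1 and Txnrd1 it lay on the strand opposite to the gene, and in Nfe2l2 on the strand of the gene. The windows of Nqo1, Sqstm1 and Keap1 did not hold these letters, and sequence outside the windows was not searched. Hmox1, Gclc and Gsr had no window. Of all 32851 windows 12.4% held them, so a match is a description of the window and not of a bound site.

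The tissue label was borne out by the arrays: all 9 listed skeletal muscle markers were tested, and their summed intensity was 79970 to 85970 in TOL mice and 79780 to 84180 in INT mice. Between 15179 and 16769 of 45281 probes were detected on TOL arrays and between 15337 and 17017 on INT arrays. TOL mouse 11 stood apart, with a mean correlation of 0.973 to the other arrays, against 0.981 to 0.987 for the rest of the mice, and results that rest on it are given without it too. In whole muscle, fewer cells of a type and less RNA in each cell cannot be told apart.

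Of the 13 tested probes, 0 differed between TOL and INT mice at an adjusted p under 0.05 in limma, against 0.829% of all tested probes. Without adjustment, at p of 0.05 or less, the count was again 0 of 13, against 9.91% of the whole table, and the methods' t-test likewise called 0 of 13 on either criterion. Sqstm1 reached an unadjusted p of 0.0418 without INT 5 and 0.0120 without INT 9. TOL and INT values overlapped at every one of the 13 probes, while they did not overlap at 1.09% of all tested probes. The TOL mean was the higher in 7 of the 8 tested genes and the lower in 1, Txnrd1, and their median difference, TOL minus INT, was 0.13 on the log2 scale against -0.0034 over all tested genes, of which 48.9% had the higher mean in TOL. With single mice left out the median difference was 0.051 (without INT 3) to 0.17 (without INT 9), and 0.073 without TOL 11. A gene's value is its brightest tested probe throughout. Adjusted p-values of the members lay between 0.599 and 0.991, and the mice are the replicates.

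**Figure D1:**
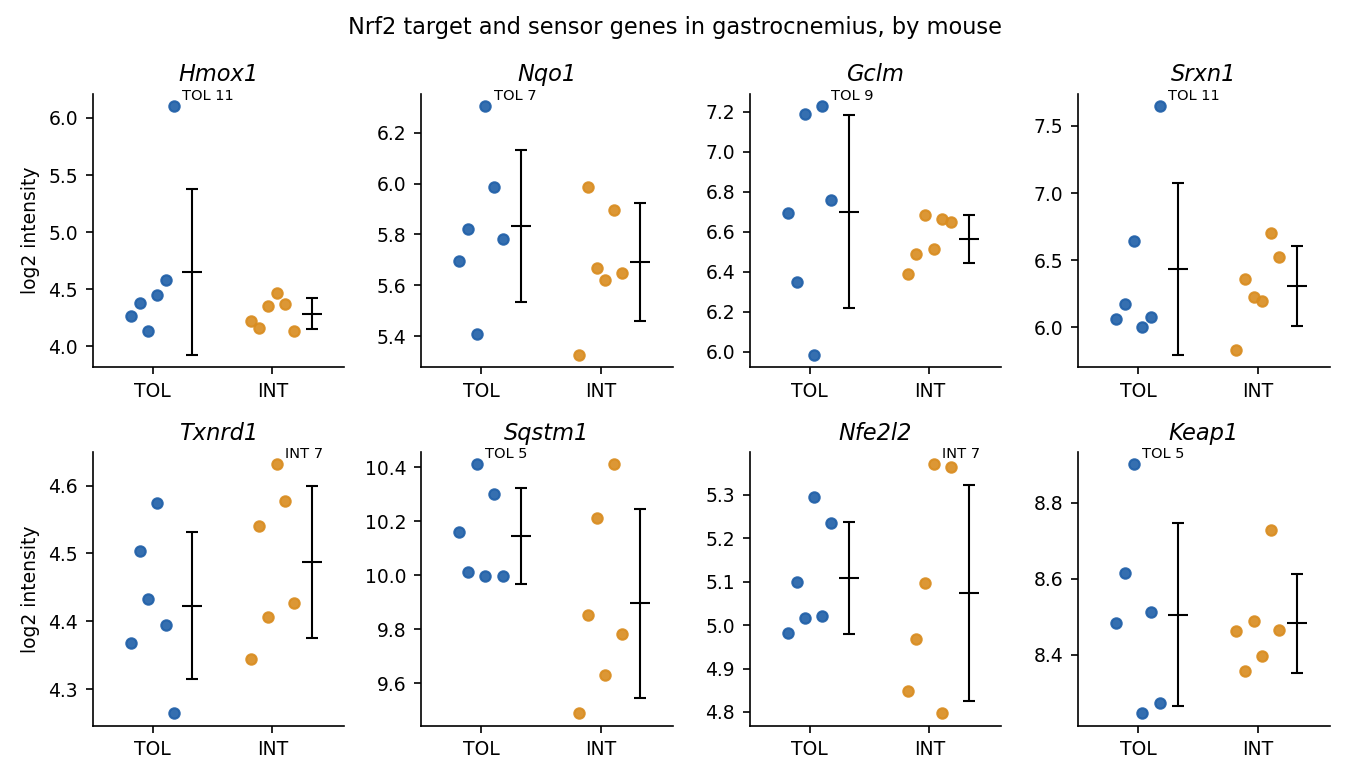
Log2 intensity (neqc normalized) of the 8 tested genes in each mouse, TOL left and INT right of each panel, each panel on its own axis; points are single mice, and the bar beside them is the mean with the SD of 6 mice. The groups overlap in every panel, and the mouse with the highest value is named: TOL 11 stands alone in Hmox1 at 6.10.

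Hmox1, the inducible heme oxygenase, which breaks heme down to biliverdin, iron and carbon monoxide, showed the widest spread for its level. Its log2 intensity was 4.27, 4.38, 4.14, 4.45, 4.58 and 6.10 in TOL mice 3, 4, 5, 7, 9 and 11, against 4.22, 4.16, 4.36, 4.47, 4.37 and 4.13 in INT mice 3, 4, 5, 7, 9 and 11. A single TOL mouse was therefore high, and the other 11 mice lay within 4.13 to 4.58, close to background. The probe was detected on 4 of 6 TOL arrays and 3 of 6 INT arrays. In raw signal TOL 11 stood at 117.8, the other TOL mice at 71.7 to 76.7 and the INT mice at 70.8 to 78.6. The difference was 0.37 ± 0.24 (SE, n = 6 each; 95% interval -0.13 to 0.87; limma adjusted p = 0.661), and without TOL 11 it was 0.08 (adjusted p = 0.858). So near background the size also depended on the correction, from 0.15 with none to 1.21 in the deposited normalized values, in neither case past the threshold. Its SD over the 12 mice exceeded that of 99.8% of the tested probes nearest in mean level.

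TOL 11 was also the highest mouse for 1219 of the 9034 tested genes and the lowest for 1603. A lead over the second mouse as large as that of Hmox1, 1.52 on the log2 scale, was seen at 24 genes, 23 of them in TOL 11 and 1 in TOL 7. Hspa1a, the heat-inducible Hsp70, was among the genes highest in that mouse, at 12.41, with 10.04 in TOL 4, 8.88 in TOL 7 and 4.68 to 5.29 in TOL 3, 5 and 9, against 4.64 to 6.26 in INT mice. Dnajb1, an Hsp40 co-chaperone, reached 10.73 in TOL 4 and 10.25 in TOL 7, and 9.77 in TOL 11. In Hmox1, TOL 4 stood at 4.38 and TOL 7 at 4.45. Over the 12 mice r between Hmox1 and Hspa1a was 0.78, or 0.41 without TOL 11. Between Hmox1 and Dnajb1 it was 0.46, or 0.29 without TOL 11, and neither was tested. The macrophage markers, tested because macrophages are rich in heme oxygenase, had a summed intensity of 436 to 568 in TOL mice and 370 to 656 in INT mice. TOL 11 stood at 530, below 3 of the other 11 mice, and was the highest mouse for 3 of 11 markers, Cd163, Cd14 and C1qb. For the others it ranked 4 to 12 of the 12 mice, counted from the highest, and was the lowest for Aif1. Markers of slow fibres were lowest in TOL 11, with a summed intensity of 3427. TOL mice spanned 3427 to 16020 and INT mice 9782 to 30390. In limma 6 of the 7 were lower in TOL at an unadjusted p of 0.05 or less, against 5.3% of all tested probes. At an adjusted p under 0.05 the count was 0, against 0.79%. TOL 11 ranked 11 or 12 of the 12 mice from the highest at each of the 7. The counts without it were not analysed here. The part of the heat shock genes, macrophages, fibre types and array quality in the Hmox1 value of TOL 11 was not tested.

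Srxn1, sulfiredoxin, which reduces overoxidized peroxiredoxins, was represented by 3 probes. At the brightest (ILMN_2677772) the values were 6.07, 6.18, 6.64, 6.00, 6.08 and 7.65 in TOL mice 3, 4, 5, 7, 9 and 11, against 5.83, 6.36, 6.22, 6.20, 6.70 and 6.53 in INT mice 3, 4, 5, 7, 9 and 11. TOL 11 again had the highest value and the other TOL mice lay within the INT range. The difference was 0.13 ± 0.23 (SE; 95% interval -0.37 to 0.62; limma adjusted p = 0.910), and it was -0.12 without TOL 11 (adjusted p = 0.892). The lead of TOL 11 was not shared by all probes of the gene: it was the highest mouse by 0.08 at ILMN_1229994, while at ILMN_2667346 INT 9 was the highest at 6.76, with 6.63 in TOL 11. The differences at these probes were 0.11 and 0.02. The 3 probes correlated with each other over the mice at r = 0.55 to 0.86, and without TOL 11 at r = 0.28 to 0.83.

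Gclm and Gclc encode the modifier and the catalytic subunit of glutamate-cysteine ligase, the rate-limiting enzyme of glutathione synthesis. Gclm was 6.69, 6.35, 7.19, 5.98, 7.23 and 6.76 in TOL mice 3, 4, 5, 7, 9 and 11, against 6.39, 6.49, 6.68, 6.51, 6.66 and 6.65 in INT mice 3, 4, 5, 7, 9 and 11. TOL mice lay on either side of the INT mice, 4 above the highest and 2 below the lowest of them. The SD was 0.48 among TOL mice and 0.12 among INT mice, and this difference in spread was not tested. The mean difference was 0.14 ± 0.17 (SE; 95% interval -0.23 to 0.50; limma adjusted p = 0.851), and it was 0.030 without TOL 9, 0.038 without TOL 5 and 0.28 without TOL 7. The probe of Gclc was detected on 2 of 6 TOL arrays, those of TOL 3 and TOL 7, and 0 of 6 INT arrays, at raw signals of 69.8 to 75.1 in TOL mice and 71.3 to 73.6 in INT mice. It was not well above background and was not tested.

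Nqo1, a quinone reductase and a standard readout of Nrf2, was 5.70, 5.82, 5.41, 6.30, 5.99 and 5.78 in TOL mice 3, 4, 5, 7, 9 and 11, against 5.33, 5.98, 5.67, 5.62, 5.90 and 5.65 in INT mice 3, 4, 5, 7, 9 and 11. TOL 7 was the highest mouse and INT 3 the lowest, and the difference of 0.14 ± 0.14 was smaller than the spread within either group (SD 0.30 in TOL and 0.23 in INT; limma adjusted p = 0.799). Without TOL 7 it was 0.047, without INT 3 0.069 and without TOL 5 0.23. A further Nqo1 probe was detected on 0 of 12 arrays. Txnrd1, the cytosolic thioredoxin reductase, lay close to background, at 4.26 to 4.58 in TOL mice and 4.34 to 4.63 in INT mice. It was the gene with the least spread for its level, with an SD above that of 18.2% of the probes nearest in mean, and its difference was -0.06 ± 0.07 (SE; adjusted p = 0.813).

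Sqstm1 encodes an autophagy receptor that binds Keap1 and is itself an Nrf2 target. It was 10.16, 10.01, 10.41, 10.00, 10.30 and 10.00 in TOL mice 3, 4, 5, 7, 9 and 11, against 9.49, 9.85, 10.21, 9.63, 10.41 and 9.78 in INT mice 3, 4, 5, 7, 9 and 11. All 6 TOL mice exceeded the INT mean, and 4 INT mice lay below the lowest TOL mouse, whereas INT 5 and INT 9 were among the highest of all. With a difference of 0.25 ± 0.14 (SE; 95% interval -0.04 to 0.54), Sqstm1 had the lowest unadjusted p of the members in limma, 0.0891 (adjusted p = 0.599). Without TOL 11 the difference was 0.28 (adjusted p = 0.622).

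Nfe2l2 and Keap1 themselves had differences close to 0. Nfe2l2 was 4.98, 5.10, 5.02, 5.30, 5.02 and 5.24 in TOL mice 3, 4, 5, 7, 9 and 11, against 4.85, 4.97, 5.10, 5.37, 4.80 and 5.36 in INT mice 3, 4, 5, 7, 9 and 11. The INT mice held both the lowest and the highest values, and the difference of 0.03 ± 0.11 had a 95% interval of -0.20 to 0.27 (limma adjusted p = 0.952). Its other probe was detected on 0 of 12 arrays. Keap1 at its brightest probe (ILMN_1258406) was 8.48, 8.61, 8.90, 8.25, 8.51 and 8.28 in TOL mice 3, 4, 5, 7, 9 and 11, against 8.46, 8.36, 8.49, 8.40, 8.73 and 8.47 in INT mice 3, 4, 5, 7, 9 and 11. TOL 5 was the highest and TOL 7 the lowest mouse, with a difference of 0.02 ± 0.11 (SE; 95% interval -0.21 to 0.26; adjusted p = 0.970).

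The other 3 tested Keap1 probes did not run the same way. The difference was 0.23 ± 0.14 at ILMN_2993267, -0.17 ± 0.14 at ILMN_2707771 and -0.10 ± 0.14 at ILMN_2621346, with limma adjusted p-values of 0.614 to 0.863. TOL 5 was the highest mouse at all 4 probes, at 8.90, 8.36, 7.70 and 6.50. Correlations between the 4 probes over the mice were r = 0.34 to 0.91, and without TOL 5 they were -0.08 to 0.88. The remaining probe, annotated to the transcript AK004738, was detected on 0 of 12 arrays.

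**Figure D2:**
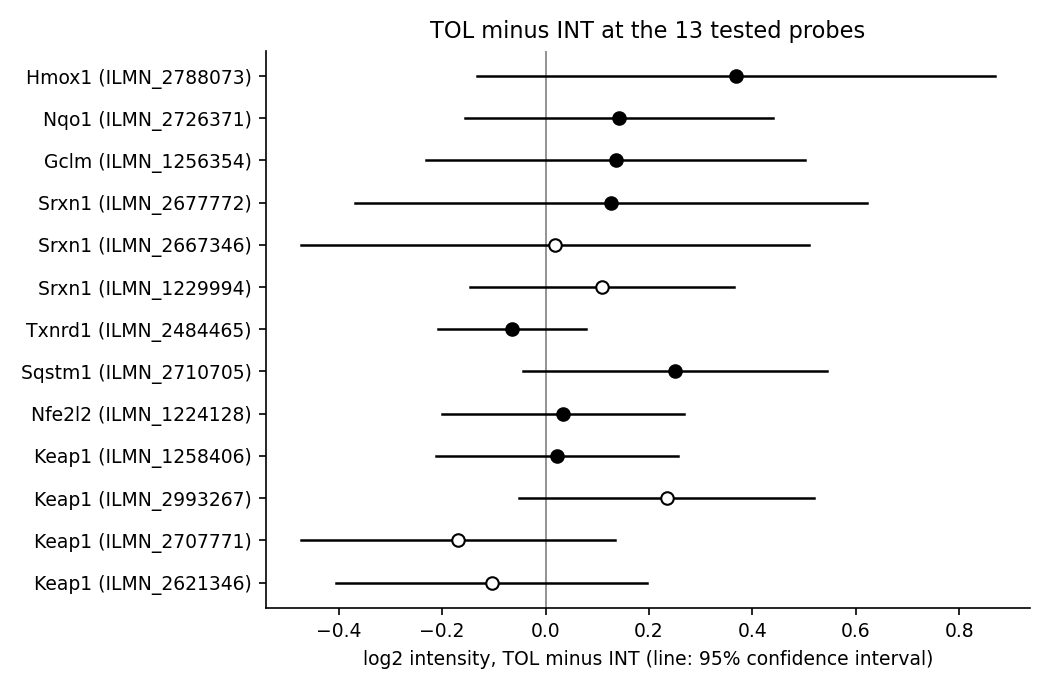
Difference in log2 intensity, TOL minus INT, at the 13 tested probes, with the 95% confidence interval from limma as a line; filled points are the brightest probe of each gene and open points its other probes. Every interval includes 0.

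Set side by side over the mice, the members ran in different directions in 11 of the 12 mice. TOL mice had 2 to 5 of the 8 genes above the mean of the 12 mice, INT 9 had 6, INT 3 had 0 and the other INT mice 2 or 3. Of 28 pairs of the 8 tested genes, 17 had a positive and 11 a negative Pearson correlation, with a median r of 0.08 against 0.003 over all pairs of tested genes. No pair passed Benjamini-Hochberg adjustment over the 28 pairs by Pearson or Spearman (permutation tests with 100000 resamples, two-sided, lowest adjusted Pearson p = 0.520), and 1 pair by Pearson and 2 by Spearman had an unadjusted p of 0.05 or less.

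**Figure D3:**
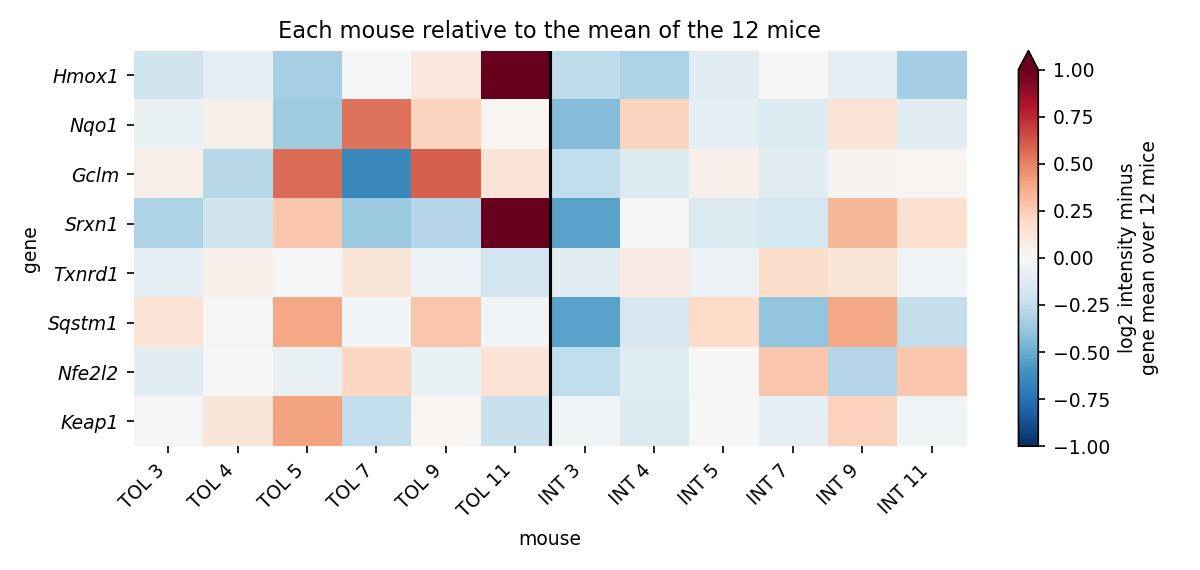
Log2 intensity of each tested gene in each mouse minus the mean of that gene over the 12 mice, TOL mice left and INT mice right of the line, with the colour scale ending at 1. Hmox1 and Srxn1 exceed the scale in TOL 11, and INT 3 is the only mouse below the mean in all 8 genes.

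Apart from Hmox1 and Srxn1, the largest positive correlations were among Sqstm1, Gclm and Keap1. Of all pairs of tested genes, 7.9% to 9.8% were as strong in either direction. Sqstm1 and Keap1 had r = 0.58 (permutation p = 0.0478, adjusted p = 0.520) and rho = 0.74 (permutation p = 0.00787, adjusted p = 0.220), with r = 0.76 within TOL and 0.73 within INT mice. Without INT 3 and TOL 5, the mice farthest from the Sqstm1 median, r was 0.55, but without TOL 5 and INT 9, the farthest from the Keap1 median, it was 0.18, so the relation rests on those mice. Gclm and Sqstm1 had r = 0.57 (permutation p = 0.0527, adjusted p = 0.520) and rho = 0.61 (permutation p = 0.0381, adjusted p = 0.534), with r = 0.84 within TOL and 0.80 within INT mice, and r was 0.67 without TOL 7 and TOL 9, the farthest from the Gclm median, and 0.42 without INT 3 and TOL 5, the farthest from the Sqstm1 median. TOL 5 was high in both genes of each of these pairs. With label means and the mean of each mouse number subtracted, r was 0.09 for Sqstm1 and Keap1 and -0.28 for Gclm and Sqstm1.

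Hmox1 and Srxn1 gave the highest Pearson r of all pairs, 0.75, with rho = -0.07 (permutation p = 0.0743 and 0.834, adjusted p = 0.520 and 0.978). The relation rested on TOL 11: without this mouse r was -0.39, and without TOL 11 and INT 11, the farthest from the Hmox1 median, it was -0.29, and without TOL 11 and INT 9, the farthest from the Srxn1 median, -0.54. Nfe2l2 and its sensor Keap1 had r = -0.49 and rho = -0.40 (permutation p = 0.103 and 0.202, adjusted p = 0.534 and 0.807). Of all pairs of tested genes, 14.7% were as strong in either direction. For Nfe2l2 and Keap1, r was -0.53 without INT 7 and INT 11, the farthest from the Nfe2l2 median. Without TOL 5 and INT 9, the farthest from the Keap1 median, it was -0.37. With label means and the mean of each mouse number subtracted, r was -0.07.

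**Figure D4:**
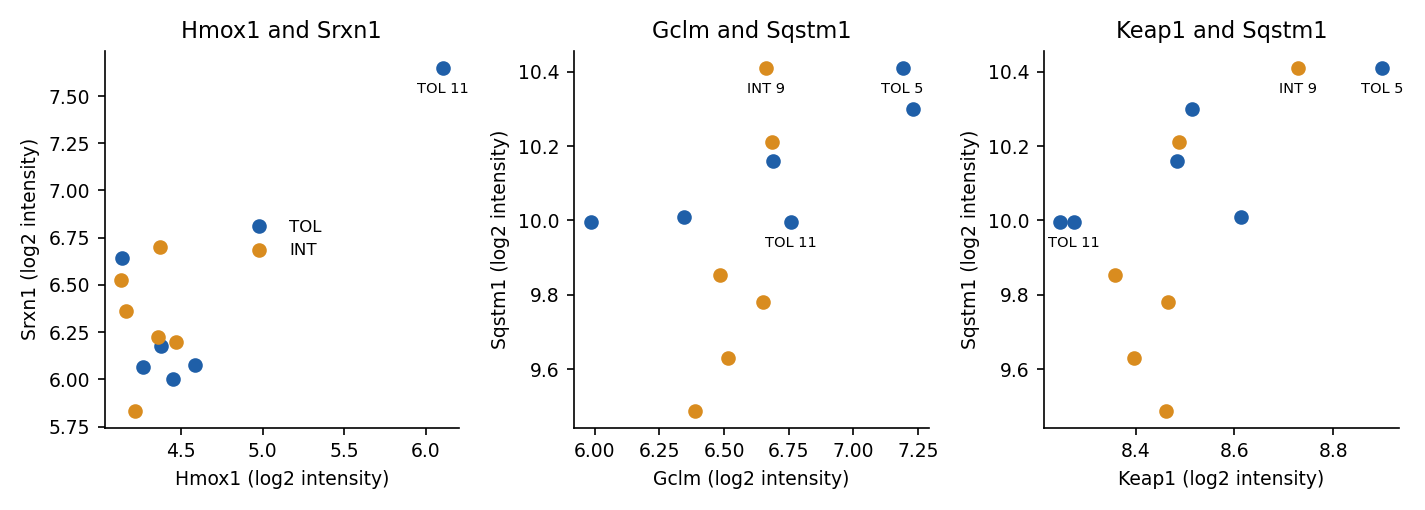
Log2 intensity of pairs of genes in the 12 mice, TOL blue and INT orange: Hmox1 and Srxn1, Gclm and Sqstm1, Keap1 and Sqstm1. TOL 11 lies alone in the first panel, where r is 0.75 with it and -0.39 without it, while the other panels spread over both groups with r of 0.57 and 0.58.

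The genes most like Hmox1 over the 12 mice, by Pearson r among 9033 other tested genes, were Sema4b (0.95), Ppp1r15a (0.95), Jaml (0.94), Usp54 (0.94) and Slc30a2 (0.94). All 5 were highest in TOL 11, and without it r was -0.06 for Sema4b, 0.43 for Ppp1r15a, 0.48 for Jaml, 0.30 for Usp54 and 0.75 for Slc30a2. Ppp1r15a, a regulatory subunit of the phosphatase that acts on the translation factor eIF2α, stood at 8.03 in TOL 11, and at 6.15 to 6.61 in the other mice. Nfe2l2 was most like Ran, Smad5, Errfi1, Mtx2 and Vasn (r = 0.82 to 0.88), and Keap1 most like Napb, Raver1, Oasl2, E2f5 and Osbp (r = 0.85 to 0.88). The 5 genes most like Keap1 were all highest in TOL 5, and r was 0.75 to 0.85 without it. These are descriptions over 12 mice, and each is the best of many genes.

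Regulators and partners of Nrf2 included the probes that did pass the test. Of 18 listed genes, 15 were tested, and 2 were lower in TOL at an adjusted p under 0.05, Bach1 and Crebbp, and 0 higher, where 0.79% of all tested probes were lower and 0.0385% higher by that criterion. The median difference of the list was 0.05. The list was chosen with earlier results of these data known, so the count of 2 is not independent of them. Bach1, a repressor that competes with Nrf2 at antioxidant response elements and holds down Hmox1 until heme displaces it, was 5.31, 5.87, 5.92, 5.81, 5.72 and 6.21 in TOL mice 3, 4, 5, 7, 9 and 11, against 6.28, 6.80, 6.61, 6.68, 6.62 and 6.64 in INT mice 3, 4, 5, 7, 9 and 11. Every TOL mouse lay below every INT mouse, and Bach1 fell by 0.80 ± 0.13 on the log2 scale (SE, n = 6 each; limma adjusted p = 0.00528). By the methods' t-test after Benjamini-Hochberg the adjusted p was 0.0536, and over the other alternatives it was 0.00073 to 0.0198. The size of the fall depended on the background correction, from -0.45 with none to -1.09 with an RMA-type correction. The other Bach1 probe was detected on 0 TOL arrays and 1 INT array and was not tested.

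From mouse to mouse Bach1 could be set against Hmox1 only within limits, since Hmox1 lay close to background in 11 mice. TOL 11, the mouse with high Hmox1, had the highest Bach1 of the TOL mice, at 6.21, and over the 12 mice r between them was -0.06, or -0.23 without TOL 11. The r of Bach1 to Sqstm1 was -0.35, to Gclm -0.15 and to Srxn1 0.23 (0.41 without TOL 11), given as descriptions with no test. Since Bach1 sets the labels apart, these r values also carry the difference between labels. Their r within each label was not analysed here.

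Crebbp, the CREB binding protein, an acetyltransferase that serves Nrf2 and many other factors as a coactivator, was 4.24, 4.56, 4.46, 4.28, 4.82 and 4.75 in TOL mice 3, 4, 5, 7, 9 and 11, against 5.10, 5.49, 5.31, 5.31, 5.18 and 5.74 in INT mice 3, 4, 5, 7, 9 and 11. At this brightest probe the groups did not overlap, and Crebbp fell by 0.84 ± 0.12 (SE; limma adjusted p = 0.0021). Its second tested probe fell by 0.71 ± 0.12 (adjusted p = 0.00749). There the groups overlapped slightly, with TOL 11 at 4.787 and INT 3 at 4.782. The third was detected on 1 TOL and 1 INT array and was not tested. Both Crebbp probes were near background in TOL mice, where 4 and 5 of 6 arrays detected them, so the size of the fold depended on the background correction, from -0.30 with none to -2.33 with an RMA-type correction, while the direction did not. Syvn1, a ubiquitin ligase reported to act on Nrf2, was 7.67 to 8.20 in TOL and 8.02 to 8.69 in INT mice (difference -0.30 ± 0.12; adjusted p = 0.436). Cul3 and Rbx1, which form the ligase with Keap1, had differences of -0.12 and 0.05 (adjusted p = 0.739 and 0.898).

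**Figure D5:**
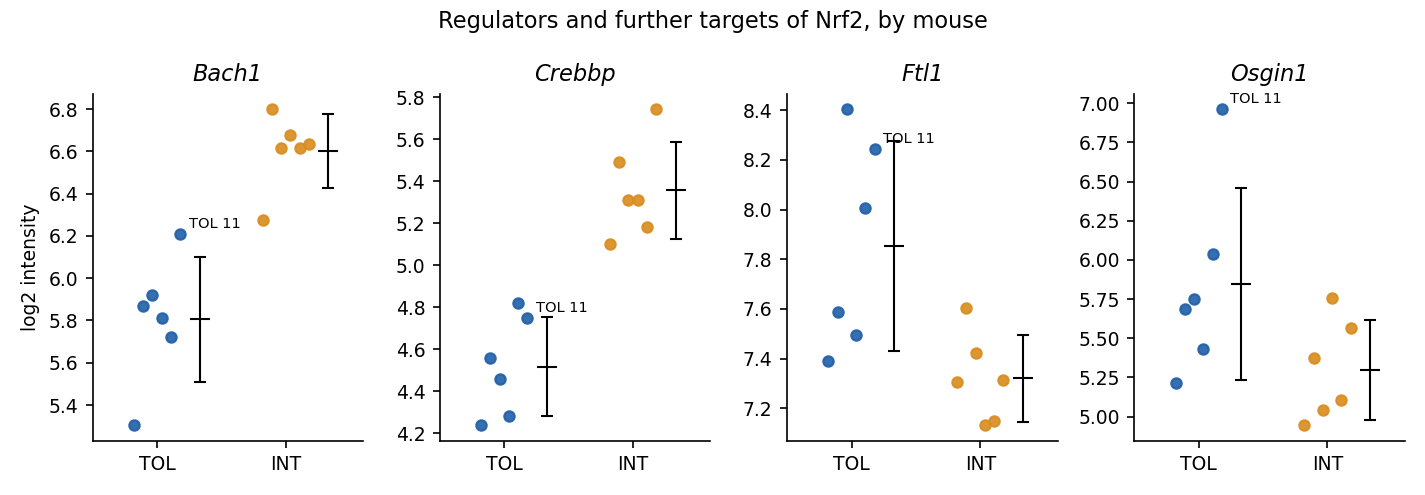
Log2 intensity of Bach1, Crebbp, Ftl1 and Osgin1 in each mouse, TOL left and INT right, each panel on its own axis, with the mean and SD of 6 mice beside the points and TOL 11 named. At the brightest probe of each gene, shown here, the groups are apart in Bach1 and Crebbp and overlap in Ftl1 and Osgin1.

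A wider list of 33 Nrf2 targets gave 25 tested genes. In limma 0 passed an adjusted p under 0.05, and at an unadjusted p of 0.05 or less 7 were higher in TOL and 0 lower, where 4.61% of all tested probes were higher and 5.3% lower. The TOL mean was the higher in 20 and the lower in 5, with a median difference of 0.12. That antioxidant genes run higher in TOL had been seen in these data before the list was used, so the count is not independent of it, and without TOL 11 it was 4 and without INT 5 also 4. With median scaling in place of quantile normalization 2 were higher and 1 was lower, Fth1. With only probes detected on all 12 arrays, 6 were higher and 0 lower. Among the 7 of the main fit was Gss, near background at means of 4.50 in TOL and 4.31 in INT mice. Its probe was detected on 5 TOL and 2 INT arrays, so it passed the filter mostly through TOL. Ftl1, the ferritin light chain, which stores the iron that heme breakdown sets free, was 7.39, 7.59, 8.40, 7.49, 8.01 and 8.24 in TOL mice 3, 4, 5, 7, 9 and 11, against 7.30, 7.60, 7.42, 7.13, 7.15 and 7.31 in INT mice 3, 4, 5, 7, 9 and 11 (difference 0.53 ± 0.16; adjusted p = 0.203). TOL 5, TOL 9 and TOL 11 lay above all INT mice and the other TOL mice within the INT range. Fth1, the heavy chain, had a difference of -0.05 ± 0.07 (adjusted p = 0.865) at its brightest probe and 0.13 ± 0.07 (adjusted p = 0.623) at the other.

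The glutathione transferases Gstp1 and Gstm1 had differences of 0.29 ± 0.11 (adjusted p = 0.393) and 0.30 ± 0.12 (adjusted p = 0.405). Gstp1 ran higher in TOL at all 3 of its tested probes, by 0.29, 0.36 and 0.11. The last of these lay near background, with means of 4.42 in TOL and 4.30 in INT mice. It was detected on 5 TOL and 3 INT arrays, so it passed the filter mostly through TOL. A second Gstm1 probe, not tested, was detected on 0 TOL arrays and 5 INT arrays, against the direction of the first. Ftl1, Gstp1 and Gstm1 have near-identical copies in the mouse genome, and what their probes take from those copies was not tested. Osgin1, an oxidative stress-induced growth inhibitor named after its values were seen, was 5.22, 5.69, 5.75, 5.43, 6.04 and 6.96 in TOL mice 3, 4, 5, 7, 9 and 11, against 4.95, 5.37, 5.04, 5.76, 5.11 and 5.57 in INT mice 3, 4, 5, 7, 9 and 11 (difference 0.55 ± 0.23; adjusted p = 0.436). Without TOL 11 the difference was 0.33 (adjusted p = 0.599). It was highest in TOL 11, as Hmox1 and the brightest probe of Srxn1 were. Of the 25 tested genes of the wider list, 6 were highest in TOL 11 and 7 in TOL 5. Txnrd1 was lowest in TOL 11, as were Cat and Ephx1 of the wider list.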

How the data were processed

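Total RNA of the gastrocnemius of 12 mice was hybridized to Illumina MouseWG-6 v2 BeadChips, 1 array for each mouse. GenomeStudio was the authors' image software (version: not given in the sources used here). The signal table they deposited holds linear probe intensity with no background subtraction or normalization, and the authors' deposited detection p-value of each probe and array. Their deposited value table of linear intensity was background subtracted and quantile normalized, by an unnamed program, and served as an alternative only. Groups came from the titles, since the description field names all 12 mice intolerant.

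From the signals, limma 3.58.1 in R 4.3.3 (neqc, offset 16) gave log2 values, so folds of dim probes are understated. The 15570 probes detected on at least 6 arrays entered lmFit and eBayes (trend fitted), and p-values were adjusted by Benjamini-Hochberg across these probes. Symbols came from the platform annotation: 34885 of 45281 probes have 1, 18 several and 10378 none. The precision is limited by the number of arrays. Chip identity was known for too few arrays to test it as a batch. The text names all members, in each list the genes with the smallest p or an adjusted p under 0.05, Hspa1a, Dnajb1 and the 5 genes most like Hmox1, Nfe2l2 and Keap1, and further members of the lists chosen with their values in view. The members and lists were chosen with earlier results of these data known. The limma fit, the t-test and the permutation test of a correlation were tested on simulated data. Background correction, normalization, the detection filter, the choice of probes and the promoter search were not tested in that way. Alternatives were other background corrections, scaling, filters, array weights, the methods' t-test, a block for mouse number, the mean of a gene's probes and each mouse left out. The RMA-type background was written out from the published estimator, since the package that holds it was not installed; a saddle-point estimate had been run in its place first and was kept as an alternative added after the data were seen. Its values are counted among the alternatives.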

Additional observations from a re-analysis of the deposited data

Results flagged for a closer look

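In 3 of 26 groups of 6 mice at the tested probes, a single mouse lay farther from the rest than Dixon's 95% criterion allows, where chance alone gives about 1 in 20 groups. Hmox1 in TOL 11 stood at a log2 intensity of 6.10, with the nearest TOL mouse at 4.58. Keap1 in TOL 5 stood at 8.36 at ILMN_2993267, with the nearest TOL mouse at 7.76. Keap1 in INT 9 stood at 8.73 at ILMN_1258406, with the nearest INT mouse at 8.49.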

How the results depend on the processing

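Under every alternative run for them (correlations and the median were not recomputed by the methods' t-test, nor correlations with array weights), 0 member probes passed an adjusted p under 0.05 and 0 member pairs passed adjustment for correlation, and the median difference of the members stayed above 0, at 0.04 to 0.17. Median scaling moved the median of all genes to -0.08 and turned Nfe2l2 to -0.049 and Keap1 to -0.10; array weights turned Srxn1 to -0.039 and Nfe2l2 to -0.0087. With single mice left out, Nfe2l2 ranged from -0.022 to 0.093 (below 0 without TOL 7, INT 3 or INT 9), Keap1 from -0.057 to 0.074 (below 0 without TOL 5 or INT 4) and Srxn1 from -0.12 to 0.21 (below 0 without TOL 11). Probes called among all tested numbered 77 when detected on all 12 arrays, where fewer were tested, 52 by the methods' t-test, and 78 to 152 with single mice left out (78 without INT 7 and 79 without TOL 3), against 129. Further targets higher in TOL numbered 2 with median scaling, where 1 was lower, and 4 to 7 with single mice left out. Of the regulators, 1 was called by the methods' t-test (Crebbp) and 1 when detected on all 12 arrays, which left Crebbp out. Hmox1, near background, moved between 0.15 with no background correction and 1.21 in the deposited values. The causes of the other changes were not tested. Mouse numbers occur in both groups, but the correlation of the deviations of same-numbered mice was -0.0072 to 0.15 and over 0.1 in 2 of 6 pairs, so the numbers were not taken as pairs; in 5 of 6 it exceeded the mean with the other numbers, and no TOL mouse correlated best with its own number. With the number as a replicate block 0 members were called at an adjusted p under 0.05, 1 (Sqstm1) at an unadjusted p of 0.05 or less, as without INT 5 or INT 9, and 124 probes in all.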
